A study of Schizosaccharomyces pombe with 7 samples.

Results

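Outside the centromeres, chromosome ends and mating-type region, 38 windows of 2 kb met a threshold for histone H3 dimethylated at lysine 9 (H3K9me2) in wild-type fission yeast, out of 5148 windows on the chromosome arms and 5941 on the whole array. A window was taken when its mean log2 ratio of ChIP DNA over extract DNA, relative to the array median, reached 0.7 on each of the 3 WT arrays. It needed at least 3 probes, and in 17 of the 38 a single probe carried the signal. The outer 200 kb of chromosomes 1 and 2, the outer 120 kb of chromosome 3, the stretches around the centromeres and the mating-type locus, and 2 meiotic gene islands (mei4 and mcp7) had been left out. The WT level chose these windows, so their WT level and any difference from WT are given below as a description.

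The study measured H3K9me2 by ChIP on 2-colour arrays that tile the genome with a 60-mer each 300 bp in Schizosaccharomyces pombe. The groups were fft3∆, which lacks the Snf2-family chromatin remodeller Fft3 (2 arrays, series 2 and 3), UV21, whose nature the labels do not give (1 array, series 1), and WT (3 arrays, series 1 to 3). All of these cells grew in rich medium at 30 °C and were fixed with 3% paraformaldehyde. A further array measured GFP-tagged Fft3 in cells labelled WT kept for 6 h at 18 °C, fixed, and treated with 10 mM dimethyl adipimidate. The labels do not state whether arrays of 1 group came from separate cultures, so p-values measure only the spread between these arrays. Whether strains differ in other alleles is not stated either.

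In fission yeast, H3K9 methylation is laid down by the single methyltransferase Clr4 and is bound by HP1-family proteins such as Swi6. Large domains cover pericentromeres, subtelomeres and the silent mating-type locus, while small islands lie within the euchromatic arms. Several islands sit on meiotic genes whose transcripts are removed in growing cells by the RNA-binding protein Mmi1, which recognises UUAAAC hexamers in a region of the transcript called the determinant of selective removal.

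Of the islands on the arms, 3 lay on genes from a list of Mmi1 targets, and their coding sequence is shown to give the hexamer in place. For ssm4, num1 (also named mcp5) and mbx2 the 300 bases of 1 coding exon with the most TTAAAC are printed on the coding strand, 5′ to 3′, with each TTAAAC in capitals. They are chr1:4536115-4536414 (minus strand), chr2:899384-899683 (plus strand) and chr2:3627458-3627757 (plus strand) of the RefSeq assembly ASM294v3.
ssm4: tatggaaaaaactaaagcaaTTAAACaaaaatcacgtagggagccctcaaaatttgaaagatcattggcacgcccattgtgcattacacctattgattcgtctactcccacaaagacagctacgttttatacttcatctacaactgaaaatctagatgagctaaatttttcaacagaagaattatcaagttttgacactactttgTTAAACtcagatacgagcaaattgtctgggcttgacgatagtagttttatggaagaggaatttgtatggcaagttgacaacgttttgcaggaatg
num1: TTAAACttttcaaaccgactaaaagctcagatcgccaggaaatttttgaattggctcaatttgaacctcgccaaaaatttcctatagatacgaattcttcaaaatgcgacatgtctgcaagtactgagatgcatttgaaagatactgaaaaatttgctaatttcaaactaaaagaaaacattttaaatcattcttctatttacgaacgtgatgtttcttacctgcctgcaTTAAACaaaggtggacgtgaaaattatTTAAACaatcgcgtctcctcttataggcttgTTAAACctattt
mbx2: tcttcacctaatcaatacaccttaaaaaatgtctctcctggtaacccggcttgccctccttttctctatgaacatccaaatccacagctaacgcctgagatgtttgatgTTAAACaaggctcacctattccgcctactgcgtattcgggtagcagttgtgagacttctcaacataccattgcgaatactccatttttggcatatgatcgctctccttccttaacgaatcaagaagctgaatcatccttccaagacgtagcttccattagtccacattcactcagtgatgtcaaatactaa
The num1 stretch held 4 copies, a number reached by 2 of 3957 arm genes that have a coding exon of 300 bases or more (0.0505%). The ssm4 stretch held 2, and 3.99% of those genes had at least as many, while the mbx2 stretch held 1, and 34.1% had at least as many. Over the whole coding sequence ssm4 and num1 each had 6 copies, which 0.177% of genes reached, and mbx2 had 1. No copy of the reverse complement, GTTTAA, lay in the printed stretches. A match is a run of letters and not a mapped binding site. Among listed Mmi1-target genes whose windows were not marked, mcp3 and mug4 held 3 copies in their densest 300 bases.

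A noncoding sequence is shown too, because its window kept the highest H3K9me2 of all 38 in UV21. It is chr2:2338662-2338961 of ASM294v3 (plus strand), within the exon of the noncoding RNA SPNCRNA.5604, and it holds neither TTAAAC nor GTTTAA.
SPNCRNA.5604: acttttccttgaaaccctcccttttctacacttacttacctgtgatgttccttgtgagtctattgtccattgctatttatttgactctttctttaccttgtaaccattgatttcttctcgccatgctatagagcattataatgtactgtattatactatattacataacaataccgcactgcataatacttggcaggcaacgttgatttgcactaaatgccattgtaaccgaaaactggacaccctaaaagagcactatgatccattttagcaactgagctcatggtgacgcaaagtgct

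All window and probe positions below are those of the array itself, counted from 1, and no source used here gives the build behind them. Genes were placed on the array by a shift per chromosome arm, which left 200 kb segments off by at most 340 bp. The 12 probes in fft3 had a whole-cell extract signal of 0.298% and 0.379% of the array median in fft3∆, against 54.0% to 82.7% on the other 5 arrays. The WT arrays correlated at 0.887 to 0.953 with each other over all windows, whereas the 2 fft3∆ arrays correlated at 0.484. WT series 3 had 771 saturated Cy5 and 852 saturated Cy3 probes and the other arrays none, so a ratio with a saturated ChIP spot in WT series 3 is a lower bound there. It also had 12.3% non-uniform features, and a probe non-uniform on any array was left out.

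Over the 38 windows the median H3K9me2 was 0.61 and 0.47 in fft3∆ (series 2 and 3), 1.04 in UV21, and 0.99, 1.19 and 1.38 in WT (series 1 to 3). The other 5110 arm windows had medians of -0.11 and -0.10 in fft3∆, -0.07 in UV21 and -0.08 on each WT array. In limma's fit, 10 of the 38 windows were lower in fft3∆ than in WT at a Benjamini-Hochberg adjusted p under 0.05, where 5.52% of all 5941 windows were lower. Because the WT arrays chose the windows, nothing is read from that share. Both fft3∆ arrays lay below every WT array in 23 of the 38 windows, where 19.6% of arm windows did. UV21 lay below every WT array in 14 of the 38, where 21.3% of arm windows did, and above every WT array in 7, where 23.9% did.

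The windows were of different kinds. In 17 of them the signal rested on 1 probe, and the other 21 are called windows with several probes. A window was counted as resting on 1 probe when its highest probe exceeded the mean of its other probes by at least 2 log2 units on each WT array, a division made after the values were seen. Of the 21, 7 lay within 20 kb of the left-out mating-type stretch, 4 within 20 kb of that around centromere 3, and 10 elsewhere on the arms.

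**Figure D1:**
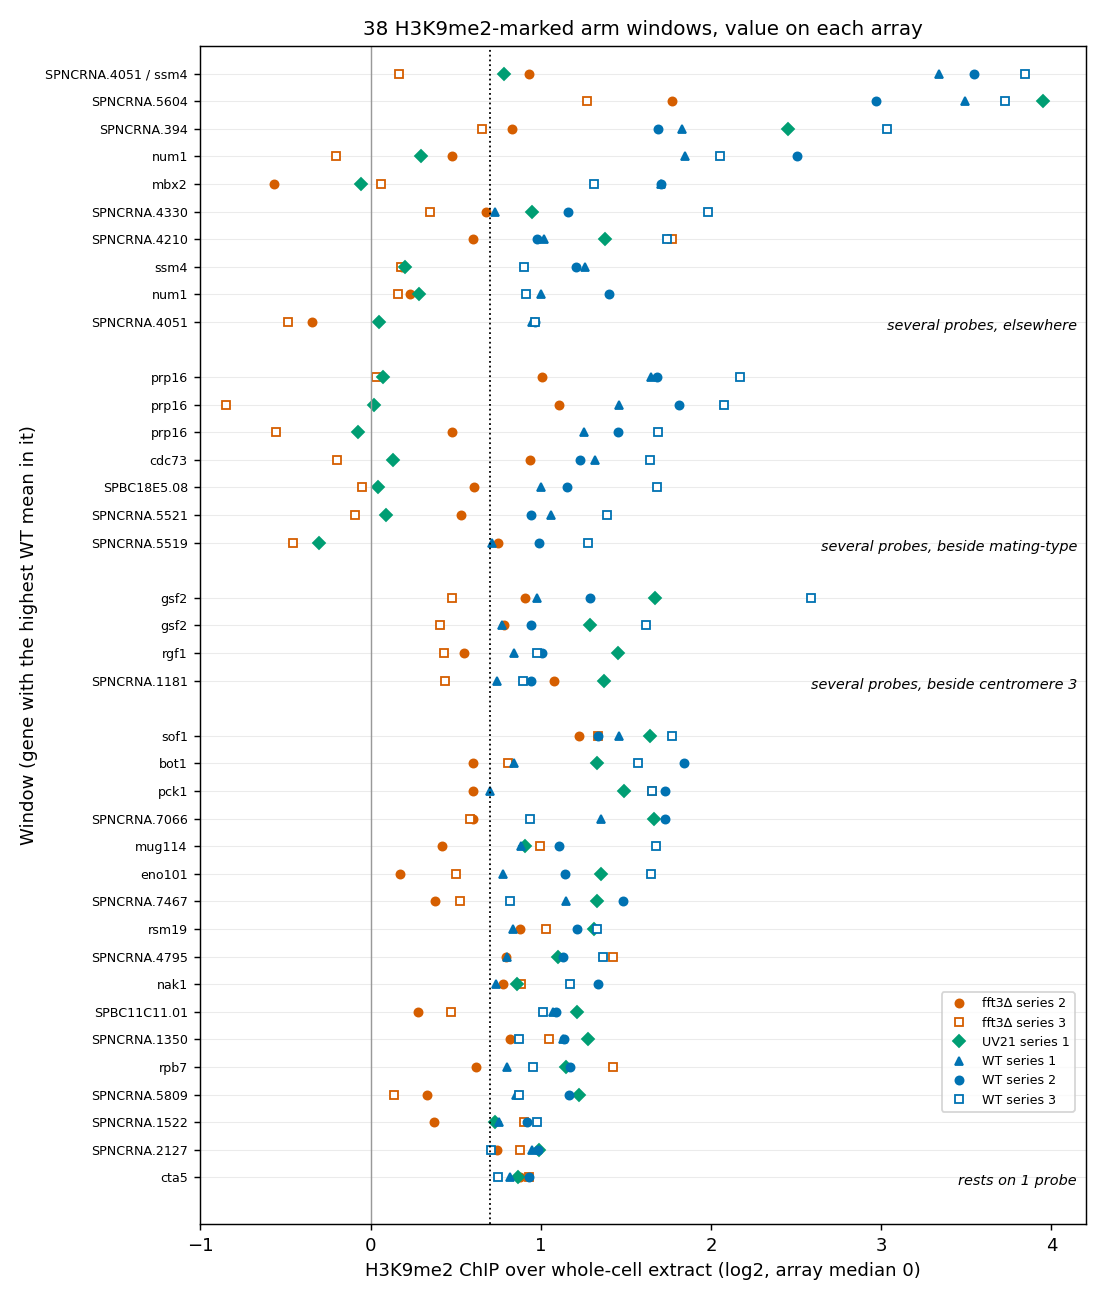
H3K9me2 of each of the 38 windows on each of the 6 arrays (x axis, log2 ChIP over whole-cell extract with the array median at 0); rows are windows named by the gene with the highest WT mean in them, and the dotted line marks 0.7. The windows at ssm4, num1, mbx2 and beside the mating-type stretch lie below every WT array in UV21, at 0.78 or less, while UV21 is at 0.7 or more at SPNCRNA.5604, SPNCRNA.394, the 4 centromere 3 windows and the 17 windows that rest on 1 probe.

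Of 13 listed Mmi1-target genes found by name in the annotation, 10 had probes on the arms considered. Of these, 3 (ssm4, num1 and mbx2) lay in member windows. The list also named mug1 and dil1, which were not found by name. The 3 genes accounted for 5 member windows, or 13.2% of the 38, where 0.466% of arm windows held a gene of the list. The other 7 listed genes (mug8, mug10, mcp3, spo5, rec8, crs1 and mug4) had WT means over their probes of -0.13 to 0.44. None of 11 wtf genes, 7 histone genes, 23 tRNA genes and 1 phosphate-regulated gene with probes on the arms lay in a member window. Of 100 ribosomal protein genes, rps1701 did, and of 84 mug genes (meiotically upregulated), mug114 did, both in windows that rest on 1 probe. The lists were assembled with earlier results of these data known.

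The highest member window in WT was the centre of a 3-window stretch at ssm4, which encodes a dynactin-related protein of meiotic nuclear movement. This window (4530001 to 4532000 on chromosome 1, 7 probes) had 0.93 and 0.17 in fft3∆, 0.78 in UV21, and 3.34, 3.54 and 3.85 in WT. The fft3∆ and WT arrays did not overlap, while UV21 lay between the 2 fft3∆ arrays. fft3∆ averaged 0.55 ± 0.54 (SD, n = 2) against 3.58 ± 0.25 in WT (SD, n = 3). The fitted difference was -3.03 on the log2 scale (SE 0.26, limma adjusted p = 0.00729), or 8.15-fold lower. By the highest WT mean over its probes, the gene of this window is SPNCRNA.4051, a noncoding RNA that reaches the left neighbour window as well. That left window, which also overlaps but1, had -0.34 and -0.49 in fft3∆, 0.05 in UV21 and 0.95, 0.97 and 0.97 in WT. The right one, over the rest of ssm4 and part of tpr1, had 0.18 and 0.18 in fft3∆, 0.20 in UV21 and 0.90 to 1.26 in WT. Both were also called lower in fft3∆ (limma adjusted p = 0.00729 and 0.0240). The left call was kept in 16 of 17 alternatives and lost with normexp background correction (-1.06). The right call was kept in 13 of 17. It was lost without WT series 1 (-0.87), without WT series 2 (-0.90), without the highest probe (-0.70) and with the series number as a block (-0.87).

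Probe by probe, the ssm4 island was a single peak. Along 12 consecutive kept probes, from 4529101 to 4532460, every WT array was at 1 or more. Of these, 4 probes reached 1 in fft3∆ series 2, 0 in fft3∆ series 3 and 1 in UV21. At the summit, the probe starting at 4530901 had 1.33 and 0.06 in fft3∆, 1.40 in UV21, and 3.89, 4.203 and 4.89 in WT.

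The num1 island covered 2 windows. num1 encodes the cortical anchor of dynein during meiotic nuclear oscillation. Its main window (900001 to 902000 on chromosome 2, 7 probes) had 0.48 and -0.21 in fft3∆, 0.30 in UV21, and 1.85, 2.51 and 2.05 in WT. The difference of fft3∆ from WT was -1.999 (SE 0.27, adjusted p = 0.00949), or 3.998-fold lower. The fft3∆ and WT arrays did not overlap, and UV21 lay between the 2 fft3∆ arrays. Its left neighbour, shared with psy2, had 0.23 and 0.16 in fft3∆, 0.29 in UV21 and 0.91 to 1.40 in WT. The peak was flatter than that of ssm4. It ran over 10 consecutive kept probes at 1 or more on every WT array (899101 to 901860), of which 3 reached 1 in fft3∆ series 2, 0 in fft3∆ series 3 and 0 in UV21.

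mbx2 encodes a MADS-box transcription factor that promotes flocculation. Its window (3628001 to 3630000 on chromosome 2, 6 probes) had -0.57 and 0.06 in fft3∆, -0.05 in UV21, and 1.71, 1.70 and 1.31 in WT. It was 3.55-fold lower in fft3∆ than in WT (-1.83, SE 0.23, adjusted p = 0.00888), without overlap between these 2 groups. UV21 lay between the 2 fft3∆ arrays. The run of probes at 1 or more in WT spanned 1560 bp, and none of its 6 probes reached 1 on a fft3∆ array or in UV21. At these 5 windows of the Mmi1-target genes both fft3∆ arrays lay below every WT array, where 19.6% of arm windows did. UV21 did too, where 21.3% of arm windows did. WT levels chose these windows, so nothing is read from it.

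**Figure D2:**
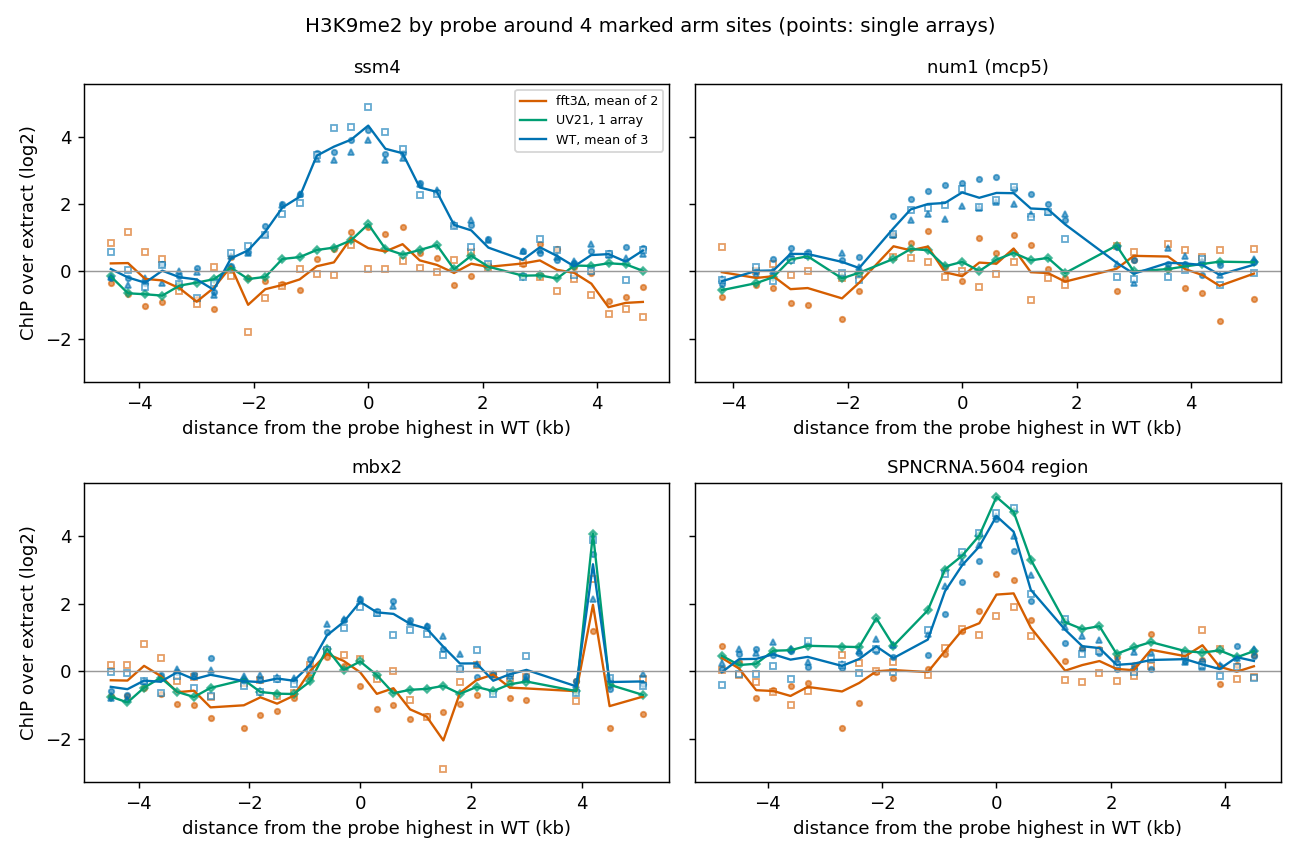
H3K9me2 by probe around ssm4, num1, mbx2 and SPNCRNA.5604 (x axis, distance in kb from the member window's probe that is highest in WT; y axis, log2 ChIP over whole-cell extract); lines are the fft3∆ mean, UV21 and the WT mean, and points are single arrays. The WT mean is under 1 by 2700 bp on each side of all 4 summits. UV21 is above the WT mean at the SPNCRNA.5604 summit and at 1.40 or less across the other 3 peaks, and a single high probe stands 4200 bp to the right of the mbx2 summit.

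Of 3 member windows without a protein-coding gene, all over noncoding RNAs, the 2 with the most probes lay on chromosome 2. The first (2340001 to 2342000 on chromosome 2, 6 probes) overlaps SPNCRNA.5603, SPNCRNA.5604 and SPNCRNA.1506, and no protein-coding gene. It had 1.77 and 1.27 in fft3∆, 3.95 in UV21, and 3.49, 2.97 and 3.73 in WT. UV21 was above every WT array, and both fft3∆ arrays were below every other array. The difference of fft3∆ from WT was -1.88 (SE 0.26, adjusted p = 0.00986), or 3.67-fold lower. In fft3∆ the peak was lower but still present, since 5 of its 6 probes reached 1 on each fft3∆ array and 6 of 6 did in UV21.

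The second (2200001 to 2202000 on chromosome 2, 6 probes) overlaps SPNCRNA.394 and lies next to eno101, the enolase gene. It had 0.83 and 0.65 in fft3∆, 2.45 in UV21, and 1.83, 1.69 and 3.03 in WT. fft3∆ was below the other arrays, while UV21 lay within the WT range. With WT series 3 far above the other WT arrays, the difference of fft3∆ from WT (-1.44, SE 0.37) had an adjusted p of 0.067 in limma's fit. Its 6 probes were at 1.27 or more on every WT array and at 1.89 or more in UV21, while 0 reached 1 in fft3∆ series 2 and 2 did in series 3.

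Of the remaining windows with several probes, 2 on chromosome 1 rested on 3 probes each. The window at 4906001 to 4908000 overlaps rpn502, which encodes a proteasome subunit, and mae1, the malate permease gene. It had 0.60 and 1.77 in fft3∆, 1.38 in UV21 and 0.98 to 1.74 in WT, so its groups overlapped. The window at 5154001 to 5156000, over SPNCRNA.4330 and its noncoding neighbours, is the other one without a protein-coding gene. It had 0.68 and 0.35 in fft3∆, 0.95 in UV21 and 0.73, 1.16 and 1.98 in WT. Neither was called in any comparison.

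Beside the mating-type stretch, 7 windows were members, 6 of them on its right side. They overlap ordinary genes, among them prp16, a splicing ATPase, cdc73, a subunit of the Paf1 elongation complex, and krs1, a lysyl-tRNA synthetase. Over the 7 windows the median was 0.75 in fft3∆ series 2, -0.20 in fft3∆ series 3, 0.05 in UV21, and 1.25, 1.23 and 1.68 in WT. UV21 was at -0.30 to 0.13 in all 7 windows and below every WT array in each, where 21.3% of arm windows were. Values of fft3∆ depended on the array, at 0.48 to 1.11 in series 2 and -0.85 to 0.03 in series 3. Both lay below every WT array in 6 of the 7, where 19.6% of arm windows did.

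The highest of these windows (2170001 to 2172000 on chromosome 2, prp16 and cdc73) had 1.01 and 0.03 in fft3∆, 0.07 in UV21, and 1.65, 1.68 and 2.17 in WT. It was called lower in fft3∆ than in WT (-1.32, SE 0.30, adjusted p = 0.0465), as was the window from 2166001, over pwp1 and prp16 (-1.501, SE 0.30, adjusted p = 0.0298). The first call was kept in 10 of 17 alternatives and lost without any 1 of the WT arrays or without fft3∆ series 3 (-0.83). The second was kept in 14 and lost without WT series 2 (-1.51) or WT series 3 (-1.39). Between these windows, the one from 2168001 was not called (-1.65, SE 0.49, adjusted p = 0.107), with fft3∆ arrays at 1.11 and -0.85. WT levels were highest 9 and 11 kb from the edge of the left-out stretch, at 1.78 and 1.84. Beyond the members they varied, with 0.93 at 17 kb, 0.43 at 19 kb, 0.88 at 21 kb and 0.90 at 39 kb. The only left-side member, from 2088001, overlaps aim21 and SPBC18E5.08 and had 0.61 and -0.05 in fft3∆, 0.05 in UV21 and 1.004 to 1.68 in WT.

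**Figure D3:**
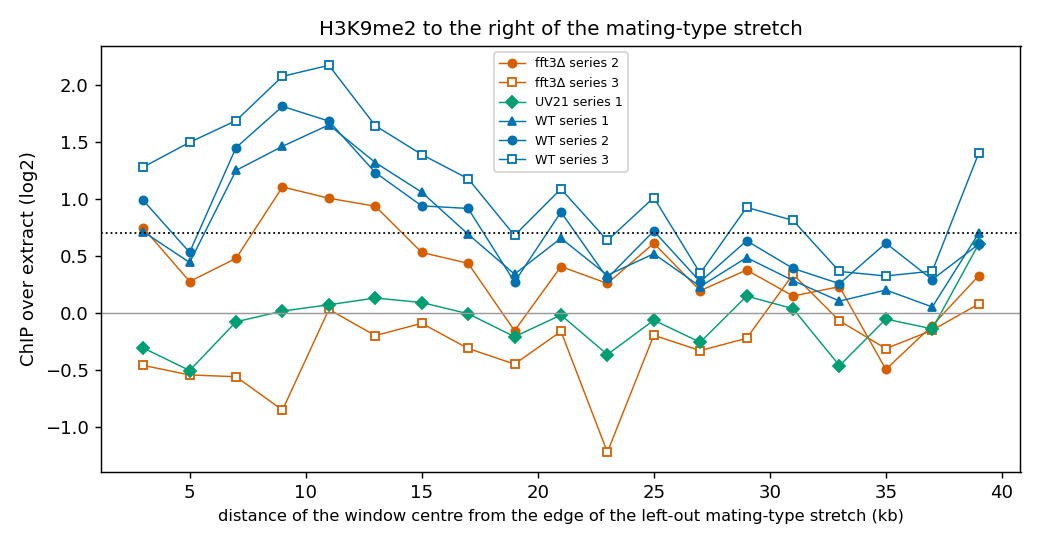
H3K9me2 in 2 kb windows to the right of the left-out mating-type stretch (x axis, distance of the window centre from the edge in kb; y axis, log2 ChIP over whole-cell extract), with 1 line per array and a dotted line at 0.7. WT exceeds 1.2 on every array at 7 to 13 kb, fft3∆ series 2 lies between WT and UV21 there, and fft3∆ series 3 and UV21 are near or below 0.

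Beside centromere 3, 4 windows were members. The left pair lies over gsf2, a flocculin gene, and the right pair over rgf3 and rgf1, which encode exchange factors for the GTPase Rho1. Medians over the 4 were 0.85 and 0.44 in fft3∆, 1.41 in UV21, and 0.81, 0.98 and 1.297 in WT. The gsf2 window from 960001 (3 probes) had 0.91 and 0.48 in fft3∆, 1.67 in UV21 and 0.98, 1.29 and 2.59 in WT. The rgf1 window from 1246001 (6 probes) had 0.55 and 0.43 in fft3∆, 1.46 in UV21 and 0.84, 1.01 and 0.98 in WT. UV21 was above every WT array in both right-hand windows, where 23.9% of arm windows were. The same held in the unmarked windows on that side out to 40.3 kb from the edge, except those from 1252001 and 1254001. The unmarked window from 1262001, for example, had 0.80 in UV21 and 0.36 to 0.57 in WT. None of the 4 members was called lower in fft3∆. Both gsf2 windows rested on 3 probes.

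In the 17 windows that rest on 1 probe, that probe had a WT mean of 4.27 to 7.16 (median 5.30). Its neighbours within 600 bp, between 1 and 4 kept probes in 16 of the 17 windows, had WT means of -0.59 to 0.26. The sheared fragments were 500 to 1000 bp long per the labels, and neighbouring probes lie 300 bp apart. The single probes were high in each of the H3K9me2 strains, with medians of 4.16 in fft3∆ (range 2.64 to 6.08) and 5.89 in UV21 (range 4.60 to 8.01). In all 17 the ChIP signal of that probe was saturated on WT series 3.

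Left without their highest probe, none of these 17 windows met the rule, and in 12 every WT array fell under 0.3. Of the 21 windows with several probes, 13 still met it without their highest probe. On the arms 32 probes had 3 or more on every WT array, of which 16 were such single probes, 9 lay in the windows with several probes and 7 lay in no member window. What a lone probe of this kind reports, against its silent neighbours, was not tested. As windows, the 17 had medians of 0.60 and 0.90 in fft3∆, 1.23 in UV21, and 0.84, 1.16 and 1.01 in WT. UV21 was at 0.7 or more in all 17, where 1.94% of arm windows were, and both fft3∆ arrays were in 7, where 0.194% were.

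**Figure D4:**
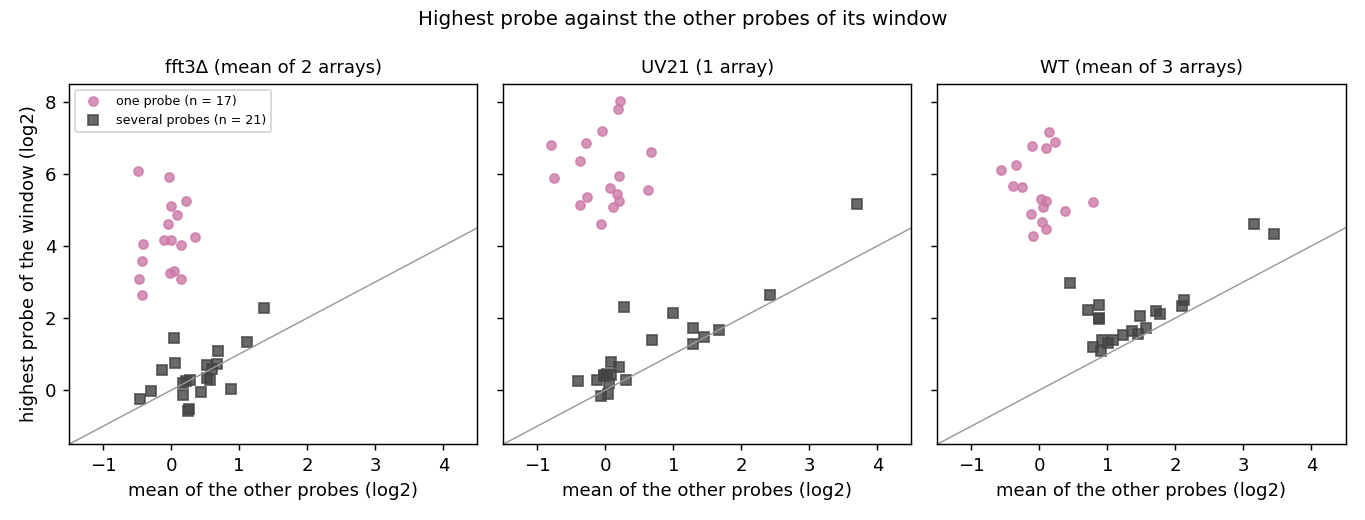
Highest probe of each member window (y axis, log2) against the mean of the other probes of that window (x axis, log2) in fft3∆, UV21 and WT; circles are windows that rest on 1 probe (n = 17), squares are windows with several probes (n = 21), and the line marks equality. The circles stand at 2.64 or more on the y axis with the mean of the other probes at -0.49 to 0.35 in fft3∆, -0.80 to 0.68 in UV21 and -0.57 to 0.78 in WT, while the squares have a median of -1.003 for the window's fft3∆ minus WT difference.

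These windows overlap genes of many roles, and the gene named need not hold the single probe. Probes placed in the gene itself averaged -0.31 in WT at eno101, -0.51 at SPNCRNA.4795 and -0.18 at rsm19. They averaged 1.31 at rpb7 and 2.05 at SPNCRNA.2127. The highest in WT were those of sof1, a ribosome biogenesis factor (1.22 and 1.34 in fft3∆, 1.64 in UV21, 1.34 to 1.77 in WT), and bot1, a mitochondrial ribosomal protein (0.60 and 0.81 in fft3∆, 1.33 in UV21, 0.84 to 1.84 in WT). In the bot1 window the other probes still averaged 0.38, 1.07 and 0.91 in WT (series 1 to 3). On WT series 3 the ChIP signal of 2 of its probes was saturated. The window of pck1, a protein kinase C, just met the rule with 0.70 on WT series 1. Of the 17, the SPBC11C11.01 window (3346001 to 3348000 on chromosome 2) alone was called lower in fft3∆ (0.28 and 0.47 in fft3∆, 1.21 in UV21, 1.01 to 1.09 in WT, adjusted p = 0.0492). That call was kept in 6 of 17 alternatives and lost without any 1 of the WT arrays, and the difference of -0.68 became -0.47 without saturated probes and -0.23 with the median over probes. The eno101 window, beside that of SPNCRNA.394, had 0.17 and 0.50 in fft3∆, 1.35 in UV21 and 0.78 to 1.65 in WT. Differences of fft3∆ from WT within 0.07 of 0 were found at cta5 (0.07), rpb7 (0.05), SPNCRNA.4795 (0.01), SPNCRNA.4210 (-0.06) and SPNCRNA.2127 (-0.07). All but SPNCRNA.4210 rest on 1 probe that was saturated on WT series 3, so neither the sign nor the order of these small values is fixed.

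The arrays of fft3∆ and UV21 did not choose the windows, and they were compared with each other directly. In limma's fit 1 of the 38 windows was lower in fft3∆ than in UV21 and 0 were higher, where 1.2% and 0.0% of all windows were. That window was the SPNCRNA.5604 window on chromosome 2, at -2.43 (SE 0.35, adjusted p = 0.0340). The call was lost without any 1 of the WT arrays, without fft3∆ series 3, and with the series number or the extraction protocol as a block, while the difference lay between -2.68 and -2.18 in all 17 alternatives run. Before adjustment, p was under 0.05 in 8 of the 38 windows as lower in fft3∆ and in 0 as higher, where 636 (lower) and 103 (higher, 1.73%) of all 5941 windows were. Both fft3∆ arrays lay below UV21 in 20 of the 38 windows, where 36.1% of arm windows did, and above it in 1, where 25.3% did.

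By kind, the median of fft3∆ minus UV21 was -0.22 in the 10 windows elsewhere, 0.23 beside the mating-type stretch, -0.83 beside centromere 3 and -0.35 in windows resting on 1 probe. The other arm windows had a median of -0.06. In none of the 7 mating-type windows did both fft3∆ arrays lie on 1 side of UV21. At all 4 centromere 3 windows both lay below UV21, with the smallest adjusted p at rgf1 (-0.97, adjusted p = 0.0747). At SPNCRNA.394 the difference was -1.71 (adjusted p = 0.174), while at the ssm4 centre it was -0.24, at num1 -0.16 and at mbx2 -0.20.

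**Figure D5:**
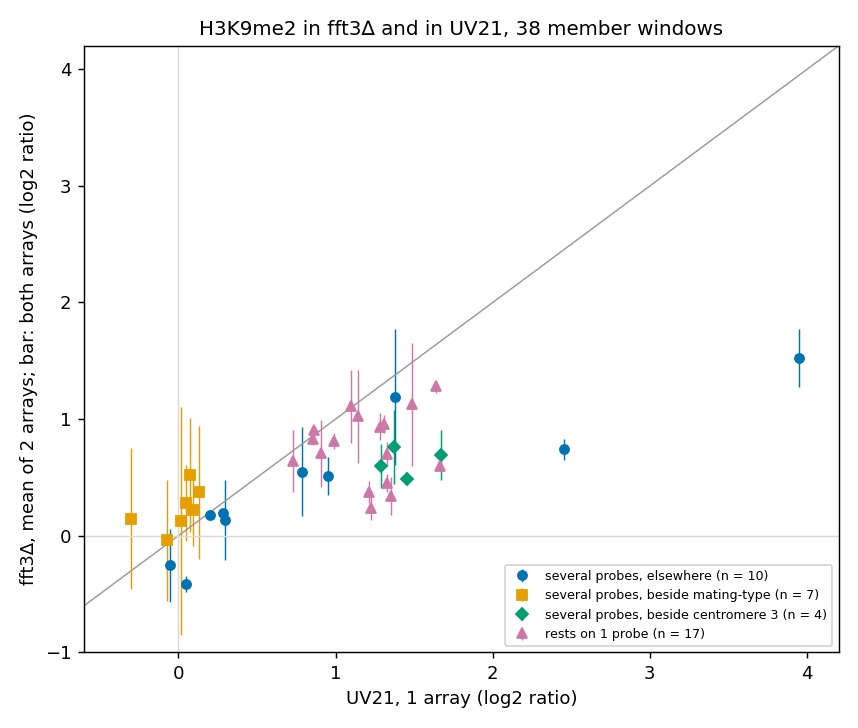
H3K9me2 of the 38 windows in fft3∆ (y axis, mean of 2 arrays, bars reaching both arrays, log2) against UV21 (x axis, 1 array, log2), by kind of window; the line marks equality. The 7 mating-type windows lie at -0.30 to 0.13 in UV21, the SPNCRNA.5604 window stands far to the right of the line at 3.95 in UV21 and 1.52 in fft3∆, and the centromere 3 windows all lie below the line.

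UV21 against WT gave 0 calls among the 38 windows and 0.0% among all windows in limma's fit, with 1 UV21 array assumed to vary like the others. Before adjustment, p was under 0.05 for 13 of the 38 as lower in UV21 and for 1 as higher, where 2.22% and 1.28% of all windows were. Because the WT arrays chose the windows, nothing is read from this. The 13 were all 7 mating-type windows and 6 of the windows elsewhere, the same 6 in which UV21 lay below every WT array. Within series 1 alone, UV21 minus WT was -1.58 to -0.96 in the mating-type windows, -2.55 at the ssm4 centre, -1.55 at num1 and -1.76 at mbx2. It was 0.46 at SPNCRNA.5604 and 0.62 at SPNCRNA.394.

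Within series 2 the difference of fft3∆ from WT was -2.61 at the ssm4 centre, -2.03 at num1, -2.27 at mbx2 and -1.20 at SPNCRNA.5604. The same windows had -3.68, -2.26, -1.25 and -2.45 within series 3. In the mating-type windows the range was -0.97 to -0.24 in series 2 and -2.92 to -1.48 in series 3. Both series gave the same direction at all of these windows.

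To see a WT array that had no part in the choice, windows were also chosen on the WT arrays of 2 series and read in the third. Chosen without series 2, 41 windows had a median of 0.60 in fft3∆ against 1.16 in WT of series 2. fft3∆ was lower in 40 of them (97.6%), and in 54.5% of the other arm windows. Chosen without series 3, 43 windows had 0.44 in fft3∆ against 1.31 in WT of series 3, and fft3∆ was lower in 36 (83.7%, with 54.7% in the other arm windows). Chosen without series 1, 55 windows had 0.86 in UV21 against 0.82 in WT of series 1, and UV21 was lower in 19 (34.5%, with 49.0% in the other arm windows). In each case 38 windows, the members, also reached 0.7 on the array held out.

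Whole-cell extract signal, the denominator of each ratio, also differed at some of these windows. Its median difference of fft3∆ from WT was 0.18 over the 38 windows and 0.01 over the other arm windows, on the log2 scale. In the 10 windows elsewhere it was 0.40, made up of -0.13 within series 2 and 0.93 within series 3. At the ssm4 centre it was 0.43 and at num1 0.18, beside ratio differences of -3.03 and -1.999. At mbx2 it was 0.21 beside -1.83, and at SPNCRNA.5604 it was 0.62 beside -1.88. In the mating-type windows it was 0.01. Its part in the ratio differences was not tested.

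Fft3-GFP, measured once, had a median of 0.12 over the 38 windows and -0.00104 over the other arm windows. In 13 of the 38 it was at or above 0.29, the 90th percentile of the other arm windows, where 10.2% of arm windows were. Of the 13, 8 were windows with several probes and 5 rested on 1 probe. At the 17 single probes themselves Fft3-GFP had a median of 0.53 (range 0.06 to 1.49), against -0.00144 at their neighbours within 600 bp. Of the 5, the eno101 window had 0.53 at its single probe and a mean of 0.55 over its other probes. In the rest of the 5, the other probes averaged 0.29 at SPNCRNA.4795, 0.24 at nak1, 0.23 at SPNCRNA.1350 and 0.08 at SPNCRNA.7066. Highest were the windows of SPNCRNA.4210 (0.63), eno101 (0.54) and gsf2 (0.48, from 960001). Lowest were those of SPNCRNA.1181 (-0.11), bot1 (-0.05) and rsm19 (-0.05). At the islands it was 0.26 at the ssm4 centre, -0.02 at num1, 0.34 at mbx2, 0.10 at SPNCRNA.5604 and 0.43 at SPNCRNA.394, and all other arm windows reached at most 1.11. Cells for this array had been kept at 18 °C, unlike those of the H3K9me2 arrays that chose the windows. The Fft3-GFP values describe the windows, and their relation to H3K9me2 was not tested.

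Around the threshold, the windows just inside were those of pck1, SPNCRNA.2127 and SPNCRNA.5519, whose lowest WT arrays had 0.70, 0.71 and 0.71. Just outside were those of SPNCRNA.5522 (0.69, beside the mating-type stretch), sib2 (0.67) and hob3 (0.66). The SPNCRNA.5522 window had a mean of 0.06 in fft3∆, -0.00473 in UV21 and a mean of 0.93 in WT. The sib2 window had 0.69 in fft3∆, 0.92 in UV21 and 0.78 in WT, and the hob3 window 0.80 in fft3∆, 1.11 in UV21 and 0.94 in WT. Of the 38 members, 10 had a lowest WT array under 0.8, and 8 other arm windows had one between 0.6 and 0.7.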

How the data were processed

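Per the file headers, the deposited scanner files were made with Agilent Feature Extraction (versions 12.0.3.1, 10.7.3.1 and 11.5.1.1), and series 3 used extraction protocol 1105 where the others used 1200. Per the file headers, processed Cy5 (ChIP) and Cy3 (extract) intensity is background-subtracted and dye-scaled, and the software's own ratio is log10 of Cy5 over Cy3. The deposited value table held the linear ratio of both processed signals, with a median of 0.932 to 0.991 per array, found by comparison with the scanner files since its scale is not stated. Dyes were not swapped, so a dye effect would remain in every value.

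From these, log2 of processed Cy5 over Cy3 minus the array median was computed over 33704 of 41551 probes (dim or non-uniform features left out) and averaged in 2 kb windows. limma 3.58.1 in R 4.3.3 was fitted by group to the 6 H3K9me2 arrays over 5941 windows. Calls were made at a Benjamini-Hochberg adjusted p under 0.05. The fit was also tested on simulated data that gave every array the WT spread of its window. A spread that differs between groups was not simulated. The number of arrays limits the precision. The normexp alternative used median signals. Named were the genes with the highest WT mean in the 10 highest single windows and each stretch, the 5 largest and 5 smallest fft3∆ differences, the 3 highest and 3 lowest Fft3-GFP values, the 3 windows on each side of the threshold, and list genes in member windows; others named were chosen after their values were seen. Members and lists were chosen with earlier results of these data known. The main fit did not pair arrays by series number.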

Additional observations from a re-analysis of the deposited data

Results flagged for a closer look

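The SPNCRNA.5604 window on chromosome 2 (2340001 to 2342000) is listed because fft3∆ and UV21 differed there past the threshold when compared directly. It had 1.77 and 1.27 in fft3∆ and 3.95 in UV21, a difference of -2.43 on the log2 scale (SE 0.35, limma adjusted p = 0.0340, with 2 arrays and 1 array). UV21 has no replicate, so its spread was taken from the other groups. The call was kept in 11 of 17 alternatives and lost without any 1 of the WT arrays, without fft3∆ series 3, and with either block.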

How the results depend on the processing

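A median difference was said to move when it changed by at least the SD of the WT medians over the 38 windows. That SD was 0.19 for the ratio and 0.17 for whole-cell extract. Counts and the Fft3-GFP difference had a fixed fold limit instead, under which 55 windows without WT series 1 counted as unmoved beside 38. By these limits, 136 of the summaries recomputed under each alternative stayed and 36 moved. Of the single-window tests, 147 kept their call, 40 lost it and 0 changed sign. The ssm4 centre, num1, mbx2 and SPNCRNA.5604 windows stayed lower in fft3∆ than in WT in all 17 alternatives run. With normexp, UV21 against WT gave 1 call and fft3∆ against UV21 gave 2. With non-uniform features kept, the median of UV21 minus WT was -0.81. The median over probes gave 21 windows, with medians of -1.01 (fft3∆ minus WT) and -0.92 (UV21 minus WT). Chosen after seeing the data, leaving out saturated probes gave 20 windows with medians of -1.01 and -0.99, and leaving out the highest probe gave 13 windows, 6 calls lower in fft3∆, medians of -1.24 and -1.27, and -1.09 within held-out series. A threshold of 0.5 gave 60 windows, and 0.7 on the WT mean gave 61. A threshold of 1 gave 12, with medians of -1.47 and -1.40. With the extraction protocol as a block, 6 windows were lower in fft3∆ than in WT and 0 were called between fft3∆ and UV21. Same-series deviations of fft3∆ and WT correlated at -0.02 and -0.0483 (series 2 and 3) over all windows. Over the 38 windows they correlated at -0.238 and -0.176. With 2 fft3∆ arrays these values cannot show whether the series pairs the arrays. The series 3 arrays also shared an extraction protocol and software version that no other array had. With the series number as a replicate block, 10 windows were called lower in fft3∆ than in WT. That block gave 1 call between UV21 and WT and 0 between fft3∆ and UV21, whose median difference was -0.54. Leaving out 1 array at a time gave 5 to 16 windows lower in fft3∆ (6, 5 and 6 without WT series 1, 2 and 3, 16 without fft3∆ series 2, and 8 without fft3∆ series 3), medians of UV21 minus WT of -0.21 to 0.0159, 0 to 4 calls between UV21 and WT, and 0 to 4 between fft3∆ and UV21. The cause of these movements was not tested. UV21 and Fft3-GFP have 1 array each, which limits every statement on them.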
